A study of Mus musculus with 18 samples.

Results

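The 71 genes described here were higher in hair follicle stem cells (HFSC) after adrenalectomy and were still higher when adrenalectomised mice were fed corticosterone. They were chosen by measured values from the 27933 gene symbols of the HFSC data. In the libraries of sham-operated (Sham), adrenalectomised (ADX) and adrenalectomised, corticosterone-fed mice (ADX+CORT), levels were expressed as CPM, the count relative to the library total. A member had a mean log2(CPM + 1) at least 1 higher in both ADX and ADX+CORT than in Sham, a mean of at least 5 CPM in ADX+CORT, and all 4 of the ADX and ADX+CORT libraries above both Sham libraries. Of 76 genes with these values, 5 were set aside by name (Cxcl10, Gm15987, Nr4a1, Angptl4 and Cst6). The mirror pattern, lower by the same difference in both groups, was met by 9 genes after the same names were set aside. For it, the limit of 5 CPM was applied to the Sham mean.

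The study measured 18 mouse RNA-seq libraries in 9 groups of 2, from HFSC and dermal papilla (DP) cells purified by flow cytometry, in female mice. Sham, ADX and ADX+CORT mice were C57BL/6 wild type. Both groups of the second experiment had the 129/C57BL/6 background and received intraperitoneal tamoxifen for 6 days. Its Control mice were labelled wild type, so they were not matched for the transgene. GR KO mice carried Pdgfra-CreER with GR fl/fl, which deletes the glucocorticoid receptor (GR) in cells that express Pdgfra, in skin mainly dermal fibroblasts and papilla cells. DP cells were measured in Sham, ADX, Control and GR KO mice. The labels do not say whether the libraries of a group came from separate animals, so p-values measure only the spread between these libraries.

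Corticosterone is the main glucocorticoid of the mouse and is made in the adrenal cortex. It binds the glucocorticoid receptor, a nuclear receptor that raises or lowers transcription of its targets. HFSC reside in the bulge of the hair follicle, next to the isthmus, upper follicle and sebaceous gland, and stay quiescent for long periods. The DP is the dermal signalling centre at the follicle base.

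Library totals were 14067139 to 33014976 counts in HFSC and 6194415 to 13941628 in DP. The targeted gene Nr3c1, which encodes GR, was at 122 and 101 CPM in the GR KO DP libraries against 642 and 880 CPM in Control DP, and at 258 and 173 CPM against 263 and 308 CPM in HFSC. Among 24 bulge stem cell markers found, none was a member. Their summed level per HFSC library was 24510 and 22290 CPM in Sham, 12100 and 14200 CPM in ADX, 22440 and 17640 CPM in ADX+CORT, 19500 and 16870 CPM in Control, and 11650 and 9432 CPM in GR KO. Macrophage and Langerhans cell markers summed to 427 and 438 CPM in Sham, 580 and 654 CPM in ADX, 536 and 580 CPM in ADX+CORT, 4700 and 4499 CPM in Control, and 4803 and 5595 CPM in GR KO. They were thus higher in ADX and ADX+CORT than in Sham, as the members were, with 15 of 18 markers positive and none called in each comparison, and their part in the members' levels was not tested.

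The libraries thus express the bulge markers of the labelled cell type, but the members are not stem cell identity genes by that list. Whether the lower bulge marker sums in ADX and GR KO had a part in the members' levels was not tested. Members were mostly genes of low level: the median over members of the group mean was 3.28 CPM in Sham, 12 CPM in ADX and 12.7 CPM in ADX+CORT. In ADX+CORT, 30 members had a mean under 10 CPM and 4 had a mean over 100 CPM. By known role they comprised 15 sebaceous and lipid genes, 20 genes of barrier, defence and keratinocytes, 15 genes of vessels, blood and stroma, 5 stimulus-induced genes, 2 pigment genes, 2 WNT antagonists, 1 replication gene and 11 others. These roles were assigned with the values known and are used only to order the description.

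Members sat on 20 chromosomes. A promoter of 300 bases, from 250 before to 50 after a gene start, was found for 49 of the 71 members in the RefSeq promoter table (GRCm38.p6). Promoters of Areg, Egr2 and Slco2b1 are shown because their levels are given below: Areg and Egr2 are induced by stimuli and carry motifs known from such promoters, and Slco2b1 was the transporter with the highest difference. Capitals mark a CRE (TGACGTCA) and a TATA box (TATAAA) in Areg at chr5:91139349-91139648 on the plus strand, a CArG box in Egr2 at chr10:67537680-67537979 on the plus strand, and an AP-1 element (TGANTCA) in Slco2b1 at chr7:99711291-99711590 on the minus strand, all written 5′ to 3′.
Areg: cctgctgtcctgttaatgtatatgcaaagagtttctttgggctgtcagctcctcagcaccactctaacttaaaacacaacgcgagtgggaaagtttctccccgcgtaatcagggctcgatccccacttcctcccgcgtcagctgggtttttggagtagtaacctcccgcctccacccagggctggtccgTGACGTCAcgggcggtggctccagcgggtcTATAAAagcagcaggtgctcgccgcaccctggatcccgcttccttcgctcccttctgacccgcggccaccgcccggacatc
Egr2: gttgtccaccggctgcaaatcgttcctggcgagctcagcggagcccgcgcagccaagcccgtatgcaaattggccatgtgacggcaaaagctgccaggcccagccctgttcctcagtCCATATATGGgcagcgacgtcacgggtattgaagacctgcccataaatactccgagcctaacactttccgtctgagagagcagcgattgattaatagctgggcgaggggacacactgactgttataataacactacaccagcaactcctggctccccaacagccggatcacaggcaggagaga
Slco2b1: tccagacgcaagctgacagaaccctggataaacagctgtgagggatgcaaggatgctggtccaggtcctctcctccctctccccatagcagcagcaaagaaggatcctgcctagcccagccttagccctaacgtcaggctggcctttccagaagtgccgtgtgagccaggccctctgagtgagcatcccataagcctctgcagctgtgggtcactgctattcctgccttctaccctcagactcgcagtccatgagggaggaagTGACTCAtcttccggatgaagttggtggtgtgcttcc

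Both strands were searched, and overlapping matches of different motifs were all counted. The AP-1 element was in a promoter of 7 of the 49 members (14.3%) and of 8.97% of all 27025 genes in the table. The CRE was found in 3 members (6.12%; Areg, Epha2 and Mcm5) and 2.03% of genes, and the CArG box in 1 member (2.04%, Egr2) and 1.81% of genes. The TATA box was in 9 members (18.4%) and 15.7% of genes. The glucocorticoid element's hexamer AGAACA was in 8 members (16.3%) and 21.3% of genes. A match is a description of letters in this window and not a measured site.

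The values that chose the members are given first, with no test. The median difference in mean log2(CPM + 1) was 1.5 for ADX minus Sham and 1.47 for ADX+CORT minus Sham. Just inside the limit of 1 were Klrg2 with 1.007 as the smaller of its differences, Il1rn with 1.013 and Bspry with 1.02. Just outside were Espl1 with 0.9965, Rhob with 0.992 and Acer1 with 0.991. By edgeR's quasi-likelihood test with Benjamini-Hochberg adjustment over all genes, 6 of 71 members passed in ADX against Sham, beside 0.295% of all 15231 genes tested, and 31 by DESeq2, beside 5.65%. By the rule no member overlapped with Sham, which in the same direction held for 24.8% of genes in ADX and 21.2% in ADX+CORT. No member passed in ADX+CORT against Sham, where 0% of genes did, while 59 members had an unadjusted p under 0.05, beside 6.09% of genes, and DESeq2 called 18 members, beside 0.395% of genes. Nothing is read from these counts, since the same contrasts chose the genes.

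**Figure D1:**
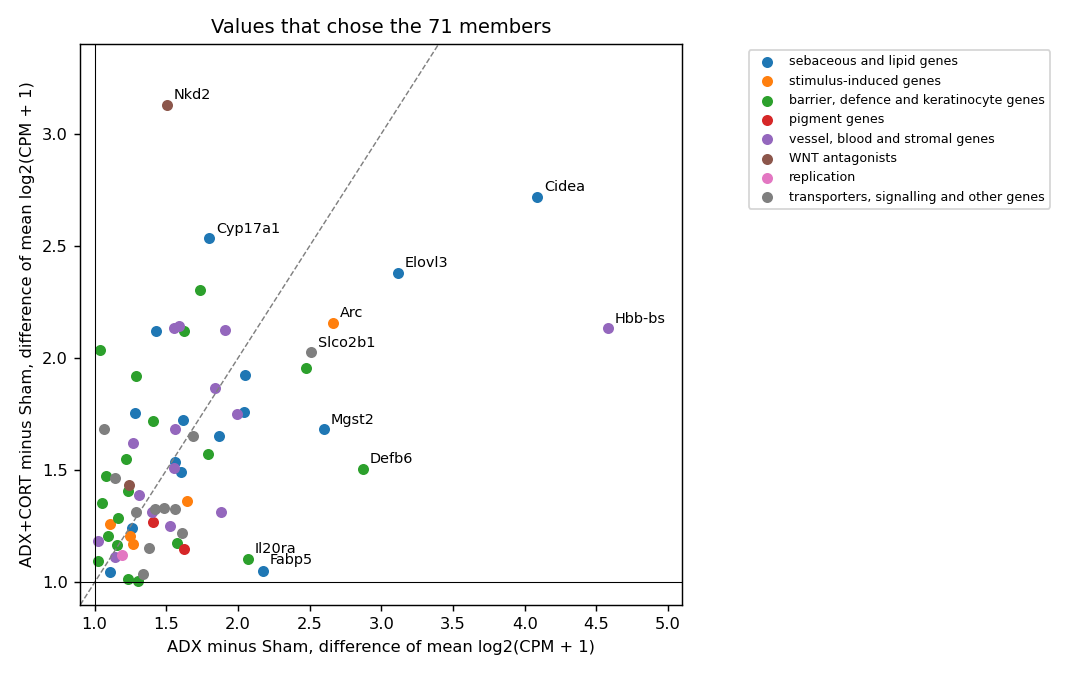
Each point is 1 of the 71 members, with the difference of mean log2(CPM + 1) in ADX minus Sham on the horizontal axis and in ADX+CORT minus Sham on the vertical axis, coloured by role. The solid lines mark the limit of 1 and the dashed line equal differences. Nkd2 lies farthest above the dashed line, and Hbb-bs, Cidea, Defb6 and Fabp5 lie below it.

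Members were at similar levels in ADX and ADX+CORT, which in part follows from the rule, since it keeps genes that were high in both. The median difference of ADX+CORT minus ADX was -0.04 in log2(CPM + 1), with 40 members below 0 and 31 above. In 53 members the libraries of both groups overlapped. In 10 members both ADX+CORT libraries were under both ADX libraries, which held for 25% of all genes tested, and in 8 members both were above, which held for 27.3%. No member passed edgeR's test of ADX+CORT against ADX, nor did any of all genes (0%), while 3 members (Defb6, Fabp5 and Nkd2) had an unadjusted p under 0.05, beside 19.3% of genes. DESeq2 called Defb6 and Fabp5 lower, beside 9.02% of genes.

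The libraries of ADX+CORT were not alike for all members. Levels differed more than 2-fold between them in 17 members, with replicate 1 the lower in 11 and the reverse in 6. The 11 included Cidea, Elovl3, Far2, Fa2h, Scd1 and Akr1c18 among the sebaceous and lipid genes, and also Hbb-bs and Mfap4.

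**Figure D2:**
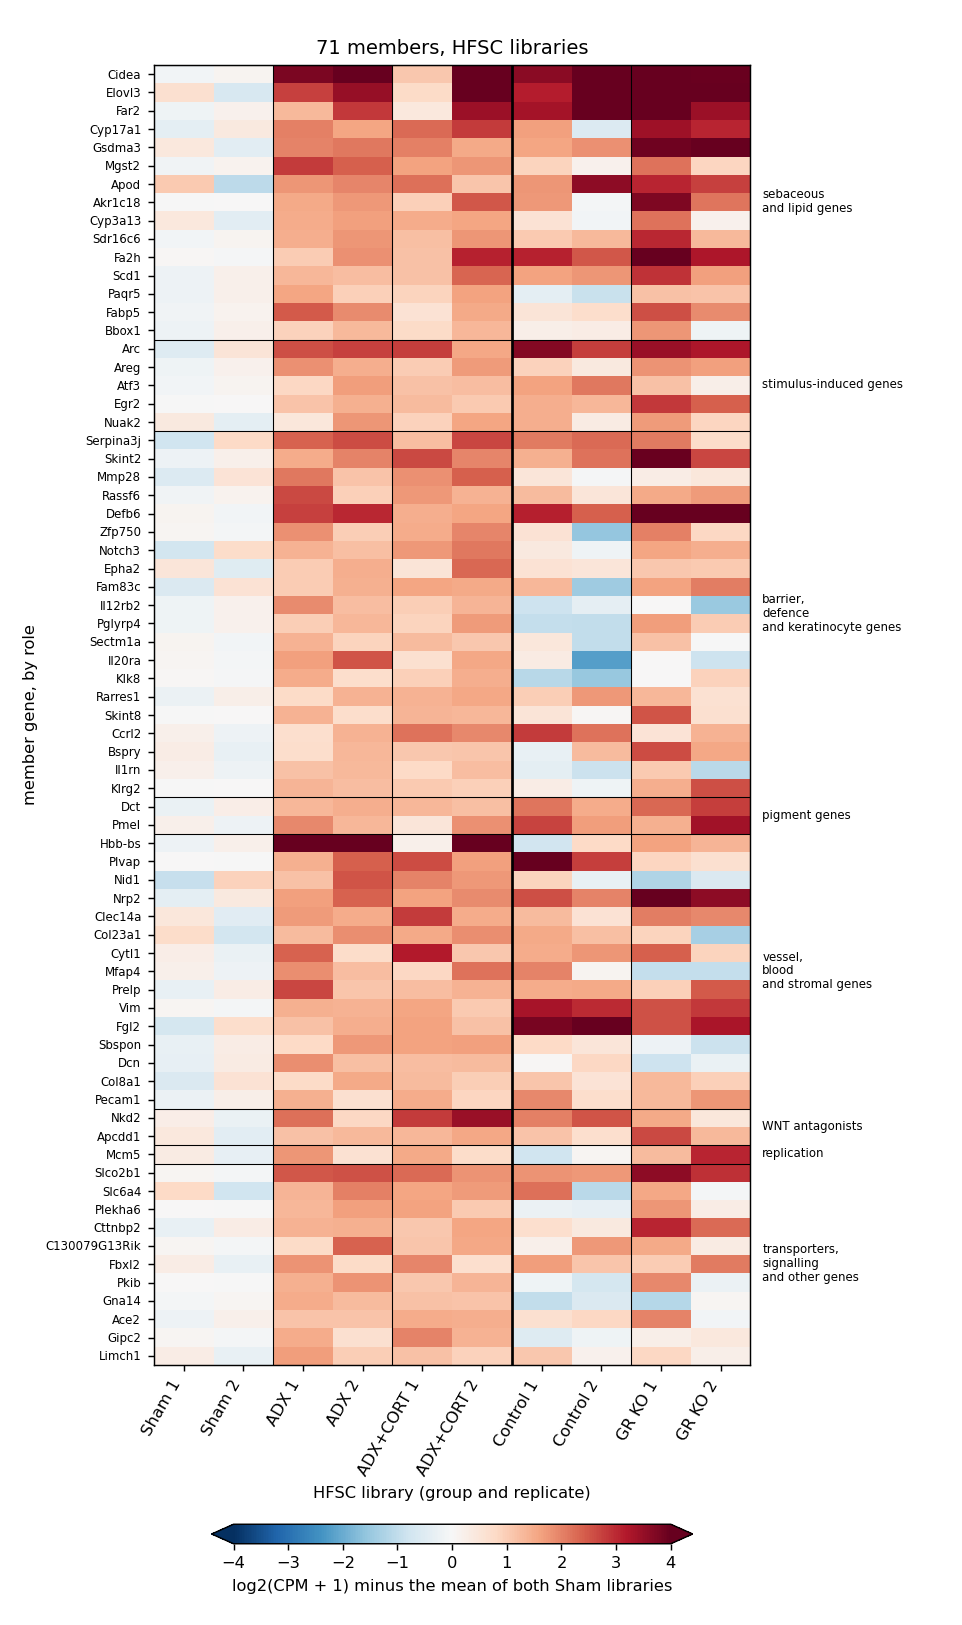
Each row is a member and each column an HFSC library, coloured by log2(CPM + 1) minus the mean of both Sham libraries, with colours saturated beyond 4 in either direction. Members are ordered by role. Every ADX and ADX+CORT cell lies above Sham by the rule, and the first ADX+CORT library is paler for Cidea, Elovl3, Far2 and Hbb-bs.

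The sebaceous gland fills with lipid droplets and secretes them onto the hair, and its genes cover fatty acid synthesis, elongation and storage. Summed over the 15 members assigned to sebaceous and lipid roles, the level was 247 and 298 CPM in Sham, 917 and 840 CPM in ADX, 523 and 967 CPM in ADX+CORT, 513 and 620 CPM in Control, and 1694 and 838 CPM in GR KO. Of the 20 genes of a sebaceous gland list, 5 were members, and the other 15 summed to 774 and 889 CPM in Sham, 882 and 920 CPM in ADX, 1076 and 1313 CPM in ADX+CORT, 1032 and 1120 CPM in Control, and 1688 and 1080 CPM in GR KO. Awat1, Dgat2l6 and Mc5r of that list were at 0 in both Sham libraries. Of all 20 listed genes, members included, 17 were positive in ADX against Sham, with a median log2 fold change of 0.92 and 1 called. In ADX+CORT against Sham 18 were positive, with a median of 1.21 and none called. Whether the share of sebaceous cells in the sort moved with these levels was not tested. In bulk libraries more cells of a type and more RNA per cell cannot be told apart.

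Cidea, a lipid droplet protein, was at 0.24 and 0.42 CPM in Sham, 16.9 and 27.2 CPM in ADX, and 1.80 and 26.3 CPM in ADX+CORT. Its first ADX+CORT library was thus above Sham but far under ADX, and its second was at the level of ADX. Elovl3, a fatty acid elongase, was at 1.43 and 0 CPM in Sham, 9.46 and 16.4 CPM in ADX, and 1.63 and 24 CPM in ADX+CORT. Far2, which reduces fatty acyl chains to alcohols for wax, was at 1.73 and 2.45 CPM in Sham, 6.47 and 20.6 CPM in ADX, and 3.11 and 32.0 CPM in ADX+CORT. In Elovl3 and Far2 the first ADX+CORT library was only just above Sham, and in all 3 genes the second was far above the first. Scd1, the stearoyl-CoA desaturase, was at 31.9 and 41.9 CPM in Sham, 92.8 and 87.5 CPM in ADX, and 83.6 and 189 CPM in ADX+CORT, with no overlap between Sham and the others.

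Fabp5, a fatty acid binding protein of keratinocytes and sebocytes, was at 62.9 and 77.8 CPM in Sham, 390 and 260 CPM in ADX, and 106 and 202 CPM in ADX+CORT. Both corticosterone libraries sat between the other groups, and ADX+CORT minus ADX was -1.12 in log2(CPM + 1). Gsdma3, a gasdermin of skin and follicle epithelium, was at 3.46 and 1.47 CPM in Sham, 12.1 and 13.2 CPM in ADX, and 12.4 and 8.42 CPM in ADX+CORT. Paqr5, a membrane progestin receptor, was at 31.3 and 42.3 CPM in Sham, 111 and 71 CPM in ADX, and 67.6 and 113 CPM in ADX+CORT. The ADX and ADX+CORT libraries of Gsdma3 and Paqr5 overlapped. Cyp17a1, a steroid hydroxylase, was at 0.30 and 1.26 CPM in Sham, 5.97 and 4.10 CPM in ADX, and 7.19 and 11 CPM in ADX+CORT, where both libraries were above both ADX libraries. Bbox1, an enzyme of carnitine synthesis and among the members of highest level, was at 80.7 and 107 CPM in Sham, 177 and 229 CPM in ADX, and 157 and 235 CPM in ADX+CORT.

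Mgst2, a microsomal glutathione transferase, was at 1.13 and 1.54 CPM in Sham, 15.2 and 11.2 CPM in ADX, and 6.05 and 6.94 CPM in ADX+CORT, between the other groups. Apod, a lipocalin that carries lipids, was at 10.4 and 1.68 CPM in Sham, 17.8 and 20.5 CPM in ADX, and 24.3 and 10.9 CPM in ADX+CORT. Its higher Sham library was close to its lower ADX+CORT library. Akr1c18, which inactivates progesterone, was at 6.79 and 6.86 CPM in Sham, 21.3 and 24.9 CPM in ADX, and 14.3 and 42.7 CPM in ADX+CORT. Fa2h, the fatty acid 2-hydroxylase, was at 1.67 and 1.54 CPM in Sham, 4.27 and 8.32 CPM in ADX, and 4.9 and 20.8 CPM in ADX+CORT. In both genes the ADX+CORT libraries were far apart. Cyp3a13, a cytochrome P450, was at 4.77 and 2.24 CPM in Sham, 11.2 and 12.4 CPM in ADX, and 11.1 and 12 CPM in ADX+CORT, with ADX and ADX+CORT alike in range.

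The barrier, defence and keratinocyte genes included Defb6, a beta-defensin and the only member of the upper follicle list. Its level was 25 and 21.1 CPM in Sham, 158 and 193 CPM in ADX, and 64.1 and 70.5 CPM in ADX+CORT. Corticosterone libraries lay between the other groups with no overlap on either side, and ADX+CORT minus ADX was -1.36. The other 13 genes of the upper follicle list, among them Cst6, which was set aside by name, summed to 2128 and 2551 CPM in Sham, 6497 and 5255 CPM in ADX, and 3068 and 3545 CPM in ADX+CORT, in the same order. Pglyrp4, a peptidoglycan recognition protein of skin, was at 13.7 and 18.0 CPM in Sham, 32.1 and 41.0 CPM in ADX, and 29.6 and 53.2 CPM in ADX+CORT. Klk8, a serine protease of the epidermis, was at 37.2 and 34.9 CPM in Sham, 103 and 59.0 CPM in ADX, and 70.7 and 101 CPM in ADX+CORT. Neither gene separated ADX from ADX+CORT. The 28 genes of a differentiated epidermis list other than the member Notch3, Cst6 again among them, summed to 8841 and 9938 CPM in Sham. Their sums were 10560 and 12560 CPM in ADX, and 10090 and 12740 CPM in ADX+CORT. Cst6 had the values that chose the members, so the sums of both lists are not free of the rule. Of all 29 listed genes, 14 were positive in ADX against Sham and 25 in ADX+CORT against Sham. The part of differentiated keratinocytes in the members' levels was not tested.

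Il20ra, a subunit of receptors for interleukin-20 family cytokines, was at 5.54 and 4.83 CPM in Sham, 18.1 and 34.1 CPM in ADX, and 8.72 and 17.2 CPM in ADX+CORT. Il1rn, the secreted antagonist of the interleukin-1 receptor, was at 31.9 and 23.9 CPM in Sham, 64.1 and 68.9 CPM in ADX, and 48.3 and 66.9 CPM in ADX+CORT. Both genes kept a gap to Sham, and only Il20ra had both ADX+CORT libraries under both ADX libraries. Notch3, a Notch receptor, went the other way with 0.89 and 4.34 CPM in Sham, 7.25 and 6.33 CPM in ADX, and 9.64 and 12.6 CPM in ADX+CORT. Ccrl2, an atypical chemoattractant receptor, was at 1.25 and 0.70 CPM in Sham, 2.13 and 4.16 CPM in ADX, and 7.74 and 6.35 CPM in ADX+CORT. For Notch3 and Ccrl2 the ADX+CORT libraries exceeded both ADX libraries. Notch3 was also in a list of 8 pericyte and smooth muscle markers. The other 7 summed to 205 and 430 CPM in Sham, 239 and 383 CPM in ADX, and 168 and 170 CPM in ADX+CORT. Of all 8, 5 were positive in ADX against Sham and 2 in ADX+CORT against Sham, with none called. The part of such cells in the level of Notch3 was not tested.

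Skint2, an immunoglobulin-like surface protein of keratinocytes, was at 1.79 and 2.73 CPM in Sham, 8.03 and 11.8 CPM in ADX, and 19.3 and 11.5 CPM in ADX+CORT. Serpina3j, of the serine protease inhibitor family, was at 0 and 1.96 CPM in Sham, 7.75 and 9.46 CPM in ADX, and 3.05 and 10.01 CPM in ADX+CORT. Both genes overlapped between ADX and ADX+CORT. Mmp28, a matrix metalloproteinase of keratinocytes, was at 0.06 and 1.26 CPM in Sham, 5.69 and 2.39 CPM in ADX, and 4.52 and 7.2 CPM in ADX+CORT. Rassf6, a Ras-association domain protein, was at 0.83 and 1.19 CPM in Sham, 11.5 and 2.85 CPM in ADX, and 5.72 and 4.29 CPM in ADX+CORT. In these low genes the ADX libraries were more than 2-fold apart.

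Among the 5 stimulus-induced genes, Atf3, a stress-induced transcription factor, had the highest level of all members, with 366 and 421 CPM in Sham, 698 and 1240 CPM in ADX, and 889 and 927 CPM in ADX+CORT. Egr2, a zinc finger transcription factor, was at 17.0 and 17.2 CPM in Sham, 38.5 and 47.1 CPM in ADX, and 42.9 and 36.6 CPM in ADX+CORT. Arc, an activity-regulated gene best known from neurons, was at 0.36 and 1.82 CPM in Sham, 10.8 and 12 CPM in ADX, and 12.2 and 4.77 CPM in ADX+CORT. Areg, an EGF receptor ligand, was at 1.19 and 1.75 CPM in Sham, 7.75 and 5.76 CPM in ADX, and 3.98 and 6.99 CPM in ADX+CORT. ADX and ADX+CORT overlapped in all 4 genes. Genes of this kind are also known to be induced when tissue is dissociated. The other 33 genes found of an immediate early list summed to 15280 and 15150 CPM in Sham, 14970 and 23650 CPM in ADX, and 19360 and 22130 CPM in ADX+CORT, and their part in the members' levels was not tested.

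Of the vessel, blood and stromal genes, Dcn, a matrix proteoglycan of fibroblasts, had the highest level in ADX+CORT, with 21.3 and 34.2 CPM in Sham, 100.1 and 63.2 CPM in ADX, and 64.7 and 66.6 CPM in ADX+CORT. Vim, an intermediate filament protein of stromal and other cells, was at 9.42 and 8.54 CPM in Sham, 25.5 and 25.1 CPM in ADX, 28.6 and 19.7 CPM in ADX+CORT, and 96.2 and 78 CPM in Control. Vim was thus higher in Control, of the second experiment, than in all 6 libraries of the first. Plvap, a protein of endothelial diaphragms, was at 1.55 and 1.54 CPM in Sham, 5.83 and 12.3 CPM in ADX, and 14.6 and 6.88 CPM in ADX+CORT. Mfap4, a microfibril protein, was at 1.25 and 0.70 CPM in Sham, 6.11 and 3.65 CPM in ADX, and 2.51 and 7.84 CPM in ADX+CORT. Hbb-bs, an adult beta-globin of red cells, was at 0.48 and 0.98 CPM in Sham, 29.0 and 54.6 CPM in ADX, and 0.98 and 27.4 CPM in ADX+CORT. Its first ADX+CORT library was thus at the level of the second Sham library. Hbb-bs has a near-identical copy (Hbb-bt), and reads that fit both can be lost to the limit on mapping quality. Endothelial markers other than Pecam1, a member, summed to 9.24 and 11.7 CPM in Sham, 33.0 and 18.0 CPM in ADX, and 40.5 and 26.8 CPM in ADX+CORT. Erythroid markers other than Hbb-bs summed to 3.4 and 6.58 CPM in Sham, 29.0 and 45.1 CPM in ADX, and 4.25 and 24.6 CPM in ADX+CORT. Fibroblast markers other than Dcn and Vim, both members, summed to 1074 to 2060 CPM over the 6 libraries without separating the groups. The part of such cells in the members' levels was not tested.

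Nrp2, a receptor for semaphorins and vascular growth factors, was at 0.95 and 2.31 CPM in Sham, 6.97 and 11.9 CPM in ADX, and 6.81 and 8.37 CPM in ADX+CORT. Nid1, a basement membrane protein, was at 0.24 and 3.36 CPM in Sham, 4.27 and 12.2 CPM in ADX, and 8.28 and 6.72 CPM in ADX+CORT. Clec14a, an endothelial lectin, was at 1.91 and 0.56 CPM in Sham, 5.97 and 4.9 CPM in ADX, and 13.8 and 4.98 CPM in ADX+CORT. All 3 genes overlapped between ADX and ADX+CORT. Col23a1, a transmembrane collagen, was at 4.05 and 0.84 CPM in Sham, 6.4 and 9.97 CPM in ADX, and 7.74 and 9.95 CPM in ADX+CORT. Cytl1, a small secreted protein, was at 0.48 and 0 CPM in Sham, 5.26 and 1.03 CPM in ADX, and 10.02 and 1.59 CPM in ADX+CORT, with both groups widely spread.

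Nkd2, an inhibitor of WNT signalling that binds Dishevelled, had the largest difference above ADX of all members. Its level was 1.49 and 0.70 CPM in Sham, 8.39 and 2.62 CPM in ADX, and 13.3 and 21.7 CPM in ADX+CORT, and ADX+CORT minus ADX was 1.63. Slco2b1, an organic anion transporter, was at 1.37 and 1.12 CPM in Sham, 11.5 and 12 CPM in ADX, and 9.70 and 6.78 CPM in ADX+CORT. Slc6a4, the serotonin transporter, was at 3.75 and 0.56 CPM in Sham, 5.97 and 10.03 CPM in ADX, and 7.19 and 7.94 CPM in ADX+CORT. Of these transporters, only Slco2b1 had both ADX+CORT libraries under both ADX libraries. Dct and Pmel, which make and shape melanin, summed to 9.95 and 11.5 CPM in Sham, 35.3 and 31.5 CPM in ADX, and 24.5 and 32.5 CPM in ADX+CORT. The other 6 melanocyte markers summed to 114 and 127 CPM in Sham, 74.5 and 84.5 CPM in ADX and 103 and 96.6 CPM in ADX+CORT. The sum was thus lower in ADX and ADX+CORT than in Sham, while over the whole list of 8 the median log2 fold change was 0.85 in ADX with 5 positive and 1.08 in ADX+CORT with 6 positive, Dct and Pmel included.

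Control HFSC were not at the level of Sham HFSC for many members. In 41 of 71 members (57.8%) both Control libraries were above both Sham libraries, which held for 18.9% of all genes tested, and in 9 (12.7%) both were below, which held for 21.1%. The Sham libraries chose the members for low values, and the experiments differ in strain, tamoxifen and surgery, so these causes cannot be told apart and no test was made. Cidea was at 15.4 and 26.8 CPM in Control, Elovl3 at 12.7 and 48.6 CPM, Atf3 at 1202 and 1691 CPM, and Defb6 at 208 and 124 CPM. Both Control libraries of Atf3 were above both of its ADX+CORT libraries, as were those of Defb6, while Cidea and Elovl3 overlapped. Fgl2, a fibrinogen-like protein of immune and vessel cells, was at 0.48 and 2.94 CPM in Sham and 32.8 and 41.9 CPM in Control, beside the higher macrophage and Langerhans cell markers of the second experiment, whose part was not tested.

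**Figure D3:**
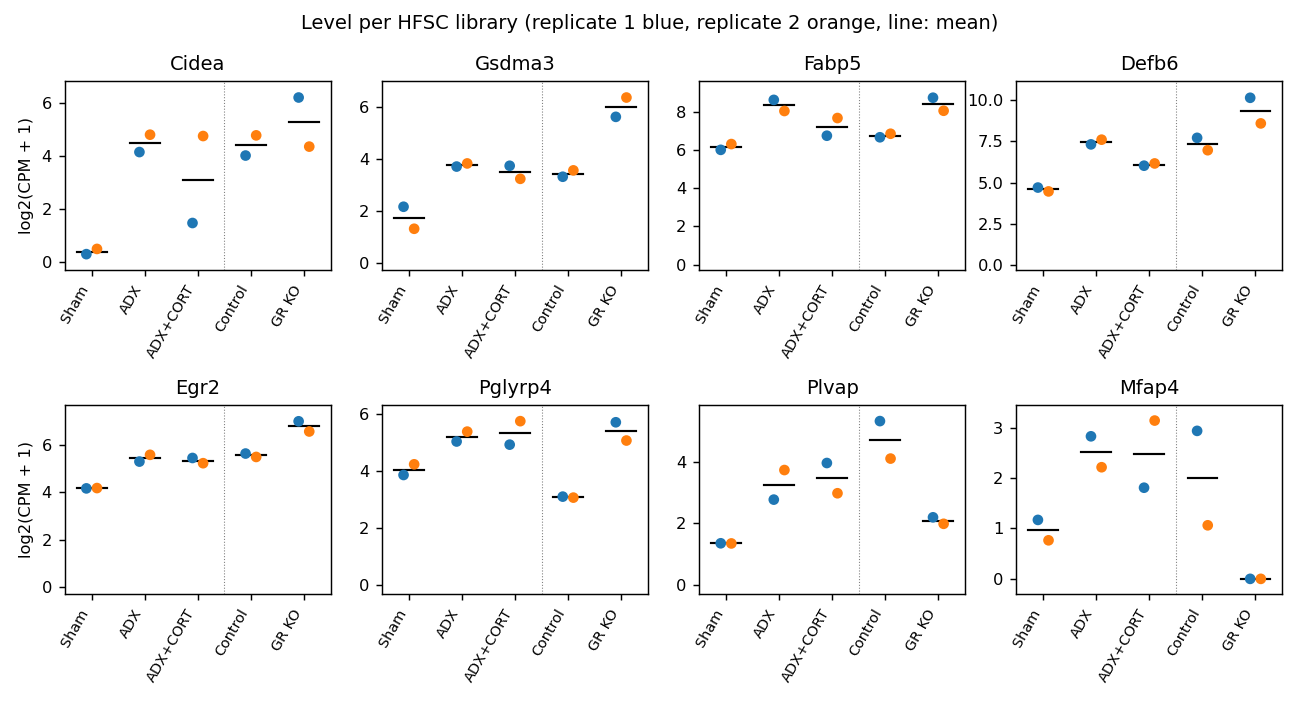
Level of 8 members as log2(CPM + 1) in each of the 10 HFSC libraries, with replicate 1 in blue, replicate 2 in orange and a line at the mean. A dotted line parts the 2 experiments. Gsdma3, Defb6, Egr2, Pglyrp4 and Fabp5 are higher in GR KO than in Control, Plvap and Mfap4 are lower, and Cidea overlaps.

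The comparison of GR KO with Control HFSC set libraries side by side that did not choose the members. It asked whether the genes also differed when GR was deleted in dermal cells. The spread in its edgeR fit was estimated over all 10 HFSC libraries, among them the 6 that chose the members. In all, 8 members rose (beside 0.67% of genes) and 2 fell (beside 0.315%): Gsdma3, Pglyrp4, Cttnbp2, Defb6, Klrg2, Klk8, Paqr5 and Egr2 were higher, and Plvap and Mfap4 lower. The 10 calls were 14.1% of the members, beside 0.985% of all 15231 genes tested (edgeR, adjusted p under 0.05). The median log2 fold change was 0.73 over the members and 0.00 over all genes, and 52 of 71 members were positive. Both GR KO libraries were above both Control libraries in 31 members (43.7%), beside 24.5% of genes, and below in 12 (16.9%), beside 14.6%. An unadjusted p under 0.05 was found for 32 members (45.1%), beside 13.1% of genes, and DESeq2 called 17 members, beside 4.84% of genes. With only the GR KO and Control libraries fitted in edgeR, 8 members were called, beside 1.08% of genes. Egr2, Defb6, Klk8 and Mfap4 then missed the threshold (edgeR adjusted p of 0.109, 0.0547, 0.0543 and 0.0542).

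Pglyrp4 (mm10, chr3:90726906-90741517) was at 7.66 and 7.45 CPM in Control and 51.8 and 32.9 CPM in GR KO, higher by 2.36 on the log2 scale (SE 0.36; edgeR, adjusted p = 0.0307). Its Control libraries were under those of Sham and its GR KO libraries at the level of ADX. Gsdma3 (chr11:98626360-98638226) was at 8.96 and 10.8 CPM in Control and 48.6 and 82.2 CPM in GR KO, higher by 2.61 on the log2 scale (SE 0.42; edgeR, adjusted p = 0.0326). Defb6 (chr8:19225478-19228209) was at 208 and 124 CPM in Control and 1121 and 382 CPM in GR KO, higher by 2.07 on the log2 scale (SE 0.39; edgeR, adjusted p = 0.0359). It had the highest level of any called member, and its GR KO libraries were far apart, though both were above both Control libraries. Cttnbp2, a cortactin-binding protein, was at 11.7 and 9.48 CPM in Control and 65.5 and 38.0 CPM in GR KO, higher by 2.17 on the log2 scale (SE 0.37; edgeR, adjusted p = 0.0327).

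Paqr5 was at 27.6 and 19.2 CPM in Control and 82.7 and 81.2 CPM in GR KO, with a log2 fold change of 1.71 (edgeR adjusted p = 0.0327). Klk8 was at 16.2 and 12.1 CPM in Control and 36.7 and 68.7 CPM in GR KO, with a log2 fold change of 1.81 (edgeR adjusted p = 0.0384). Klrg2, a lectin-like receptor, was at 14.6 and 10.3 CPM in Control and 33.9 and 75.1 CPM in GR KO, with a log2 fold change of 2.04 (edgeR adjusted p = 0.0327). Egr2 was at 49.0 and 44.2 CPM in Control and 128 and 94.4 CPM in GR KO, with a log2 fold change of 1.14 (edgeR adjusted p = 0.0421). None of these 4 genes overlapped between the groups. Fabp5 was at 99.8 and 114 CPM in Control and 422 and 263 CPM in GR KO and missed the threshold (log2 fold change 1.56, edgeR adjusted p = 0.0515).

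Plvap (chr8:71497754-71511769) was at 39.2 and 16.2 CPM in Control and 3.58 and 2.96 CPM in GR KO; its log2 fold change was -3.16 (SE 0.55; edgeR, adjusted p = 0.0327). Mfap4 (chr11:61485431-61488900) had 164 reads over both Control libraries, at 6.67 and 1.09 CPM, and 0 reads in both GR KO libraries (edgeR adjusted p = 0.0359). Mfap4 was thus at least 40.1-fold lower, taking 3 reads in the GR KO libraries together as the floor. Control replicate 1 held 128 of the 164 reads, and the bound was 85.0-fold with that replicate alone and 13.9-fold with Control replicate 2 alone. Endothelial markers other than Pecam1 summed to 68.2 and 48.5 CPM in Control and 29.1 and 35.1 CPM in GR KO. Fibroblast markers other than Dcn and Vim summed to 1558 and 1836 CPM in Control and 842 and 1048 CPM in GR KO, and all 13 had a negative log2 fold change, none of them called. Their part in the fall of Plvap and Mfap4 was not tested.

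The calls depended on the Control libraries and on the GR KO libraries. Without Control replicate 1 or without Control replicate 2 no member passed, with adjusted p of the 10 genes between 0.0663 and 0.222. Of all genes 0.168% and 0.0311% then passed. Without GR KO replicate 1 the members' median was 0.33, and without GR KO replicate 2 it was 1.05. In either case some of the 10 genes lost their calls and other members gained one. Of the 10 genes, Pglyrp4 and Cttnbp2 kept their calls with either GR KO library left out.

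Cidea was at 73.7 and 19.7 CPM in GR KO, and Elovl3 at 68.8 and 26 CPM, both overlapping Control (adjusted p of 0.701 and 0.928 by edgeR). Their first GR KO library was high and their second at the Control level. Atf3 was at 877 and 460 CPM in GR KO, below both Control libraries, with a log2 fold change of -1.25 (edgeR adjusted p = 0.12).

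Lists of other genes gave the surroundings of these values. Of 14 upper follicle genes tested, 3 were called higher in GR KO against Control HFSC, Defb6 among them, and 13 were positive with a median of 1.21. Of 20 sebaceous gland genes none was called and 15 were positive, with a median of 0.44. Of 36 immediate early genes 1 was called higher and 1 lower, with a median of -0.70. Among 24 bulge markers 1 was called lower and none higher, with a median of -0.18.

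Mcm5, a subunit of the replicative helicase, was at 24.9 and 15.7 CPM in Sham, 69 and 31.1 CPM in ADX, 58 and 33.8 CPM in ADX+CORT, 10.9 and 21 CPM in Control, and 49.2 and 172 CPM in GR KO. It missed the threshold in GR KO against Control (log2 fold change 2.66, edgeR adjusted p = 0.0521). None of 23 genes of G2 and M phase was a member. They summed to 252 and 300 CPM in Sham, 1851 and 690 CPM in ADX, 459 and 177 CPM in ADX+CORT, 406 and 172 CPM in Control, and 1502 and 3035 CPM in GR KO. All 23 were positive in ADX against Sham, with 2 called, and all 23 negative in ADX+CORT against ADX, with none called. In GR KO against Control HFSC 13 were called higher.

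**Figure D4:**
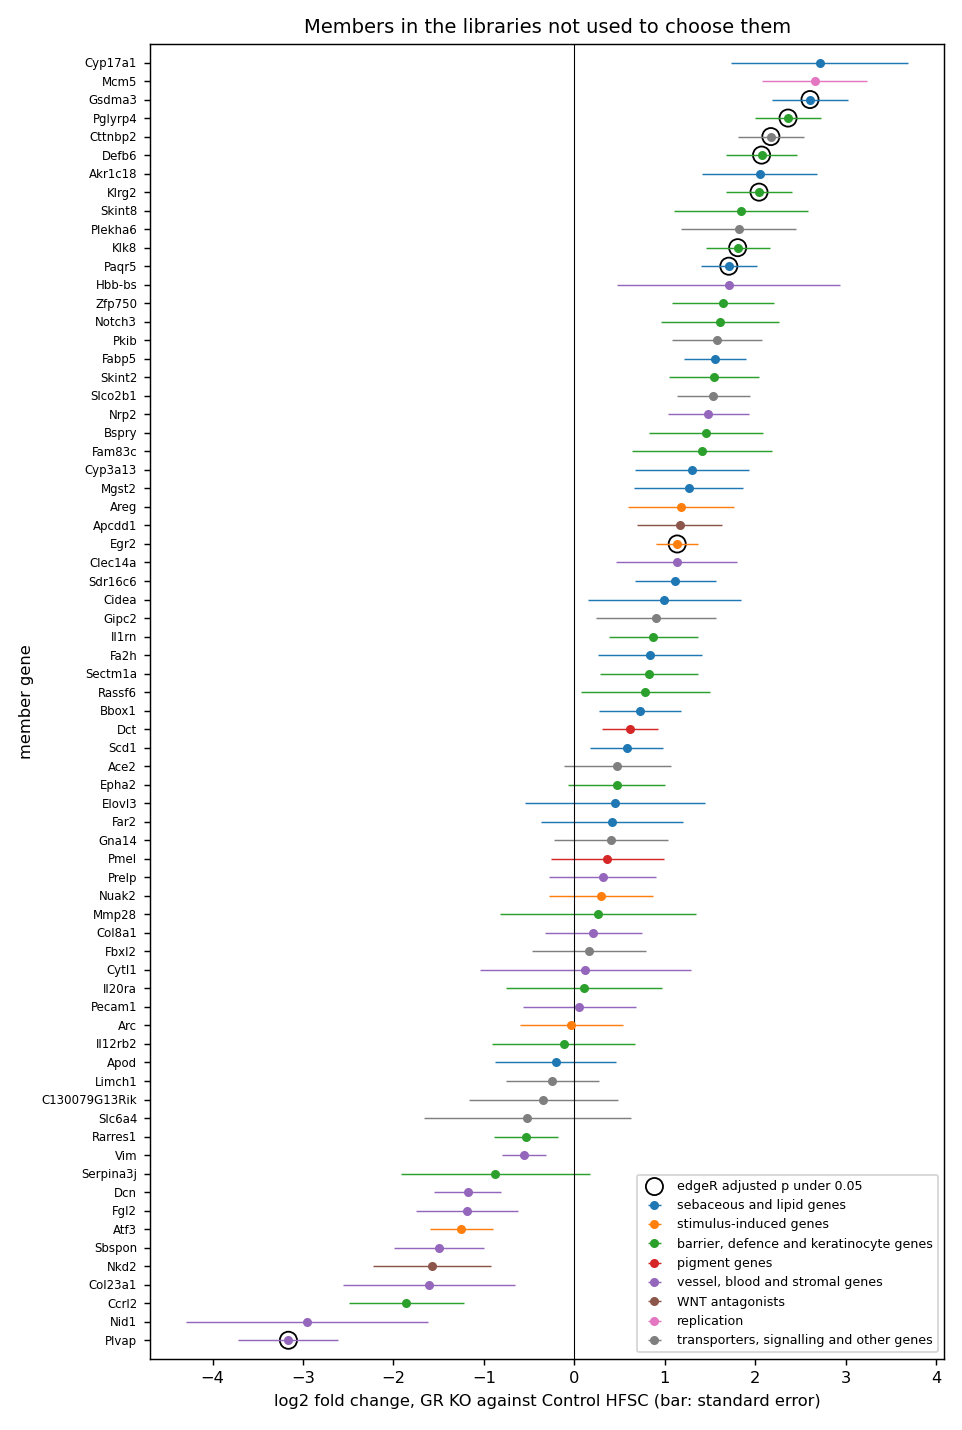
Log2 fold change of GR KO against Control HFSC for 70 members, sorted, with standard errors as bars and roles as colours. Circles mark edgeR adjusted p under 0.05. Mfap4 is left out because both GR KO libraries had 0 reads. Gsdma3, Pglyrp4, Cttnbp2, Defb6 and Klrg2 are the circled genes above 2, and Plvap is the circled gene below -3.

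In DP cells 0 of 71 members were called after adrenalectomy and 1 after GR deletion. The count of 0 for ADX against Sham by edgeR stands beside 0.017% of all 23463 genes tested. An unadjusted p under 0.05 was found for 12 members (16.9%, beside 11.7% of genes), and DESeq2 called 3 lower (Gna14, Plekha6 and Zfp750), beside 2.3% of genes. The median was -0.29 against 0.08 over all genes, with 23 members positive. Both ADX libraries were above Sham in 10 members (14.1%, beside 26.7% of genes) and below in 22 (31.0%, beside 16.6%). In DP, Cidea was at 7.27 and 3.97 CPM after sham surgery and 0.48 and 0.51 CPM after adrenalectomy, with no overlap and an edgeR adjusted p of 0.29. Beside it, 16 of 20 sebaceous gland genes tested, Cidea included, were negative in that DP comparison. So were 24 of 27 differentiated epidermis genes and 11 of 14 upper follicle genes, with none of these lists' genes called. Whether epithelial cells in the DP libraries had a part in this was not tested. Cyp17a1 had 36 reads over both Sham DP libraries and 0 in ADX DP, at least 7.37-fold lower by the same floor of 3 reads, with an edgeR adjusted p of 0.391.

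In GR KO against Control DP, where GR itself was lower, 1 member rose: Mfap4, which had no reads in GR KO HFSC, was at 216 and 99.5 CPM in Control and 2030 and 1750 CPM in GR KO. Its log2 fold change was 3.64 (SE 0.53, edgeR adjusted p = 0.0212), and without Control replicate 2 the adjusted p was 0.146. Of all genes 0.767% were called higher and 1.54% in either direction, and DESeq2 called 7 members, 5 higher and 2 lower, beside 7.85% of genes. The members' median was -0.04 and that of all genes 0.17. Both GR KO libraries were above Control in 12 members (16.9%, beside 29.3% of genes) and below in 20 (28.2%, beside 22%). Of 13 fibroblast markers 3 were called higher in the same comparison, and 10 were positive.

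Slco2b1 was at 29.5 and 9.87 CPM in Control DP and 106 and 106 CPM in GR KO DP (log2 fold change 2.49, edgeR adjusted p = 0.07), and its GR KO libraries were above both Control libraries in HFSC too, with 6.72 and 6.45 CPM against 25.6 and 16 CPM. Plvap was at 120 and 154 CPM in Control DP and 62.1 and 42.5 CPM in GR KO DP (log2 fold change -1.35, edgeR adjusted p = 0.0762). Defb6 was at 188 and 39.8 CPM in Control DP and 3.13 and 0 CPM in GR KO DP (log2 fold change -6.11, edgeR adjusted p = 0.0669), the opposite sign to HFSC. Beside it, 12 of 14 upper follicle genes and 25 of 27 differentiated epidermis genes tested were negative in that DP comparison. The part of epithelial cells in DP libraries was not tested. In 14 of 71 members (19.7%) the groups did not overlap in either cell type and lay in opposite directions, which held for 9.59% of the 13967 genes tested in both.

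**Figure D5:**
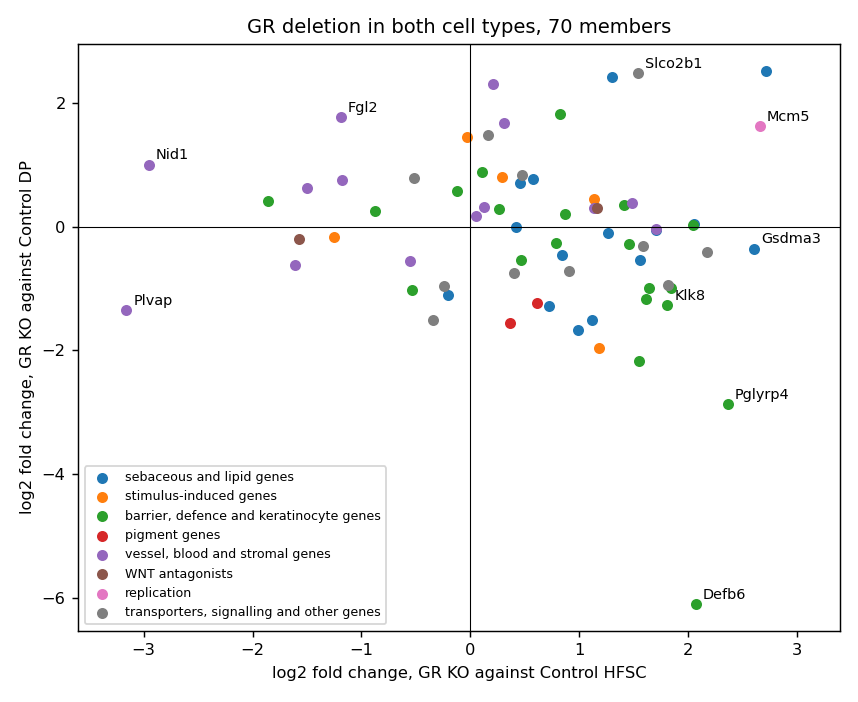
Log2 fold change of GR KO against Control in HFSC (horizontal) and DP (vertical) for 70 members, coloured by role; Mfap4 is left out for its 0 reads in HFSC. Defb6, Pglyrp4 and Klk8 lie to the lower right, positive in HFSC and negative in DP, and Slco2b1 lies to the upper right.

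Properties that the rule did not use were also described. The members' median exon length was 3422 bases, near the 3721 over the genes tested. Their libraries spread more: the median difference between the replicates of Control and of GR KO HFSC was 0.80 on the log2 scale over the members, 0.42 over all genes tested, and 0.47 over the 4984 genes between 5.30 and 34.1 CPM, the quartiles of the members' level.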

How the data were processed

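RNA-seq of 18 libraries, 10 HFSC and 8 DP, was used, with 9 groups of 2 taken from the labels. HFSC files hold whole read counts per gene as the authors deposited them; per the file headers, featureCounts 1.6.1 counted exons with mapping quality of at least 30, unstranded. Trim Galore 0.4.1, STAR 2.5.3 and DESeq2 1.22.2 stand in the submitters' processing notes, with mm10. DP files hold the authors' estimated counts of each transcript from Salmon, named in the submitters' processing notes. These were summed to genes with GENCODE M21, rounded and never compared in level with HFSC. Of 134967 transcripts, 150 had no match (at most 0.0752% of a library). Dates in place of 27 gene names in 2 HFSC files were restored. The chemistry (SMART-Seq v4, then Nextera XT, per the labels' protocols) marks no strand, so overlapping and antisense genes cannot be told apart.

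CPM used the total counts, and a pseudocount of 1 was added before log2. Each cell type was fitted with 1 mean per group in edgeR 4.0.16 (R 4.3.3, TMM scaling, default filter on low counts, quasi-likelihood test), leaving 15231 HFSC and 23463 DP genes and 5 and 4 residual degrees of freedom. Benjamini-Hochberg adjustment covered every gene tested, and an adjusted p under 0.05 was a call. The biological coefficient of variation was 38.7% in HFSC and 54.0% in DP. All 71 members passed the filter in both cell types. Standard errors were derived from the F statistic, and floors and bounds cover counting error only, since reads carry no molecular identifiers. The fits were also run on counts simulated with edgeR's own estimates of spread, which cannot test those estimates. With Mfap4 set to its bound the members' median in HFSC stayed at 0.73.

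The members, the gene lists and the roles were chosen with earlier results of these data known. Named genes were drawn from a rule: the 25 members with the largest smaller difference, up to 5 per process list, members past the threshold in comparisons that did not choose them, the 5 largest and smallest ADX+CORT minus ADX differences, the genes at the limit, and the 5 of highest level. Other members named were chosen after their values were seen. Alternatives were leaving out each library, other limits in the rule, no filter, DESeq2 1.42.0, a replicate block, median-of-ratios scaling and fits of the compared groups alone. Where 1 library was left in an arm, the spread of the other groups was used for it.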

Additional observations from a re-analysis of the deposited data

Results flagged for a closer look

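In GR KO against Control, 5 of the 10 members called in either cell type had opposite signs in HFSC and DP, with no overlap between the libraries of the groups in either. The same held for 89 (20.4%) of the 436 genes called in either cell type. The difference between the cell types was not tested, since they were counted in different ways. Mfap4 had a log2 fold change of -9.19 in HFSC, which rests on 0 reads in GR KO and is no bound, and of 3.64 in DP. Defb6 had 2.07 in HFSC and -6.11 in DP. Pglyrp4 had 2.36 in HFSC and -2.87 in DP, where it was at 7.46 and 2.18 CPM in Control and 1.24 and 0 CPM in GR KO. Cttnbp2 had 2.17 in HFSC and -0.40 in DP, and Klk8 had 1.81 in HFSC and -1.27 in DP. Klk8 was low in DP, at 1.9 and 3.35 CPM in Control and 1.67 and 0.43 CPM in GR KO. The DP values of Pglyrp4, Cttnbp2 and Klk8 had SEs of 1.89, 0.31 and 0.94. None of them was called (edgeR adjusted p of 0.525, 0.597 and 0.58), so their sign in DP is uncertain.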

How the results depend on the processing

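The rule gave 26 genes with a difference of at least 1.5, 41 with a mean of at least 10 CPM, 92 with a pseudocount of 0.25 (all 71 among them), and 71 to 144 when 1 library was left out, of which 49 to 61 were shared with the 71. The share of all genes called stands in brackets. Members called in ADX against Sham HFSC were 31 by DESeq2 (5.65%), 45 without the filter (4.53%), 10 with only the groups compared (0.688%) and 0 to 12 without 1 library (0% to 1.46%). For ADX+CORT against Sham they were 18 by DESeq2 (0.395%), 38 without the filter (0.938%) and 0 to 2 without 1 library (0% to 0.0248%), and for ADX+CORT against ADX 2 by DESeq2 (9.02%) and 3 without the filter (6.67%). GR KO against Control HFSC gave 17 by DESeq2 (4.84%), 23 without the filter (4.28%) and 0 to 10 without 1 library (0.0311% to 2.1%). ADX against Sham DP gave 3 by DESeq2 (2.3%) and 7 without the filter (2.08%). GR KO against Control DP gave 7 by DESeq2 (7.85%), 11 without the filter (3.38%) and 0 to 3 without 1 library (0.0707% to 0.841%). Alternatives were tallied for some single genes, not for all those named. Of these alternatives, 147 kept their side of the threshold, 35 passed where the reported fit did not, 36 lost the call and none changed direction. All 36 were of genes that the reported fit called, while the 147 also hold genes that it did not call. The calls were thus less steady than the pooled counts show.

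Between same-numbered libraries the correlations of deviations were -0.02 to 0.04 in HFSC. In DP they were -0.15 for ADX against Sham and 0.22 for GR KO against Control. The labels do not say whether libraries were paired, and these correlations cannot decide it, so the reported fits used no pairing. With the replicate number as a block, the members called were 2 in ADX against Sham HFSC (0.0591%) and 9 in GR KO against Control HFSC (0.899%). In GR KO against Control DP they were 4 (2%) with the block and 1 (1.54%) without it. With crossed numbers for ADX DP, chosen after seeing the data, 0 members were called. Which size of difference 2 libraries a group can detect at this depth was not measured on these members.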
